A study of Mus musculus with 8 samples.

Results

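The genes described here carry glucose into the cell, break it down to pyruvate and lactate, and move lactate across the membrane. They are 32 genes chosen by name: 2 glucose transporters, 3 hexokinases, the enzymes of the glycolytic chain, 4 enzymes that set fructose bisphosphate signals, 2 lactate dehydrogenase subunits, 4 kinases that switch off pyruvate dehydrogenase, and 2 lactate carriers. All 32 had at least 1 probe on the array, with 49 probes of 55681 in all. Of the 32, 27 passed the intensity filter and are among the 18777 genes tested. Hk3, Eno2, Ldhb, Pdk2 and Pdk4 stayed below that filter on all 8 arrays, and no level is given for them.

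Glycolysis converts glucose to pyruvate in the cytosol and yields energy without oxygen. Its flow is set mainly at glucose entry, at hexokinase and at phosphofructokinase, and lactate dehydrogenase lets the chain run on by turning pyruvate into lactate. Proliferating lymphoid and leukaemic cells are known for high rates of it, and many of its genes are textbook targets of the hypoxia-inducible factor and of Myc.

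The study asked which genes respond to miR-125b in mouse pre-B leukaemia. Cells of the lines 70Z/3 and 18-81 received a synthetic duplex, either pre-miR-125b or the control miR-Neg, at 10 nM with a lipid reagent. Fresh medium followed at 8 h, and the cells were harvested for RNA at 48 h. The 4 groups were 70Z/3 with miR-Neg, 70Z/3 with miR-125b, 18-81 with miR-Neg and 18-81 with miR-125b, each with 2 arrays, 1 from each of 2 independent experiments. 18-81 is known as a line transformed by Abelson leukaemia virus and 70Z/3 as a chemically induced line. Every array saw a transfected culture, so no untreated level exists, and each line is a single line, so a difference between them is a difference between these lines only. The level of mature miR-125b in the cells was not analysed here. Where the text gives a level, it is log2 of the probe's intensity minus log2 of the array's 75th percentile, and levels of different genes are not compared because each probe has its own response.

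The mature RNA delivered by the pre-miR-125b duplex is shown because its seed decides which messages it can pair with. RefSeq (GRCm38.p6) places the same mature sequence at Mir125b-1 on chr9:41581940-41581961 and at Mir125b-2 on chr16:77646279-77646300, both on the plus strand, and the capitals mark the seed, bases 2 to 8.
mmu-miR-125b-5p: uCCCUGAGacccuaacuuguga
The matching site, CTCAGGG, is absent from the 60 bases of all 49 member probes and is present in 245 of 55681 probes (0.44%). The probes cover only a small stretch of each message, so this says nothing of sites elsewhere in them.

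The arrays differed in brightness. Their 75th percentiles ran from 338 to 725 intensity units, and between 38.9% and 45.8% of spots were well above background. In 70Z/3 the miR-125b array was brighter than the miR-Neg array in both replicates, at 702 against 513 and 504 against 338, so in that line brightness and duplex cannot be told apart. Of 12 markers of B-lineage precursors, 10 were well above background on all 8 arrays, among them Cd79a, Pax5 and Vpreb1, while Rag1 and Rag2 were on none. The summed level of the 10, in units of the 75th percentile, was 880 to 1570 in 70Z/3 with miR-Neg and 725 to 841 with miR-125b, against 362 to 397 and 378 to 401 in 18-81. Summed T cell markers (8 of 10 measured, Cd8a not above background) came to 45.1 to 136 with miR-Neg and 36.4 to 39.7 with miR-125b in 70Z/3, against 16.1 to 22.2 and 16.6 to 25.4 in 18-81. Myeloid markers (5 of 8 measured) lay between 7.23 and 14.7 in all groups, and erythroid markers (2 of 6) between 0.227 and 0.337 in 70Z/3 and between 0.709 and 1.41 in 18-81. The 2 measured stromal markers of 6, Sparc and Vim, came to 44.9 to 69.8 with miR-Neg and 65.2 to 79.8 with miR-125b in 70Z/3, against 53.9 to 67.6 and 18.0 to 19.9 in 18-81, while the collagen markers and Dcn did not pass the filter. Between the lines, 15.6% of all genes were called higher in 18-81 and 16.2% lower (limma, adjusted p under 0.05). Of the 8 measured T cell markers, 3 were called higher and 2 lower. Of the 10 B-lineage markers 2 were higher and 6 lower, and of the 2 erythroid markers 1 and 1. A sum therefore does not give the direction of each marker. The part of other cell types in any result was not tested. In such bulk RNA, fewer cells of a type and less RNA per cell cannot be told apart.

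The large differences among these genes lay between the lines. Averaged over both duplexes, 12 of the 27 measured members (44.4%) differed between 18-81 and 70Z/3 at an adjusted p under 0.05 (limma, Benjamini-Hochberg over all genes tested), beside 31.8% of all 18777 genes. Of the 12, 8 were higher in 18-81 and 4 were lower, beside 15.6% and 16.2% of all genes. Both glucose transporters, Hk1, Pfkp, Aldoc, Pgk1, Pgam1 and Pkm were higher in 18-81, and Pfkl, Bpgm, Pfkfb1 and Pfkfb4 were lower. The median over the 27 members was 0.28, or 0.26 above the all-gene median. The direction was not common to the pathway, since 17 members lay above 0 and 10 below. All 4 arrays of 18-81 lay above all 4 of 70Z/3 for 9 members and below them for 5, beside 18.5% and 18.2% of all genes. Under quantile normalization 15 members were called (10 higher, 5 lower) beside 36.1% of all genes (18.9% and 17.2%): the same 12, with Aldoa, Eno3 and Pdk3 added. With the replicate number as a block, 16 members were called beside 48.1% of all genes: the same 12, with Aldoa, Eno3, Pdk3 and Pfkfb2 added.

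**Figure D1:**
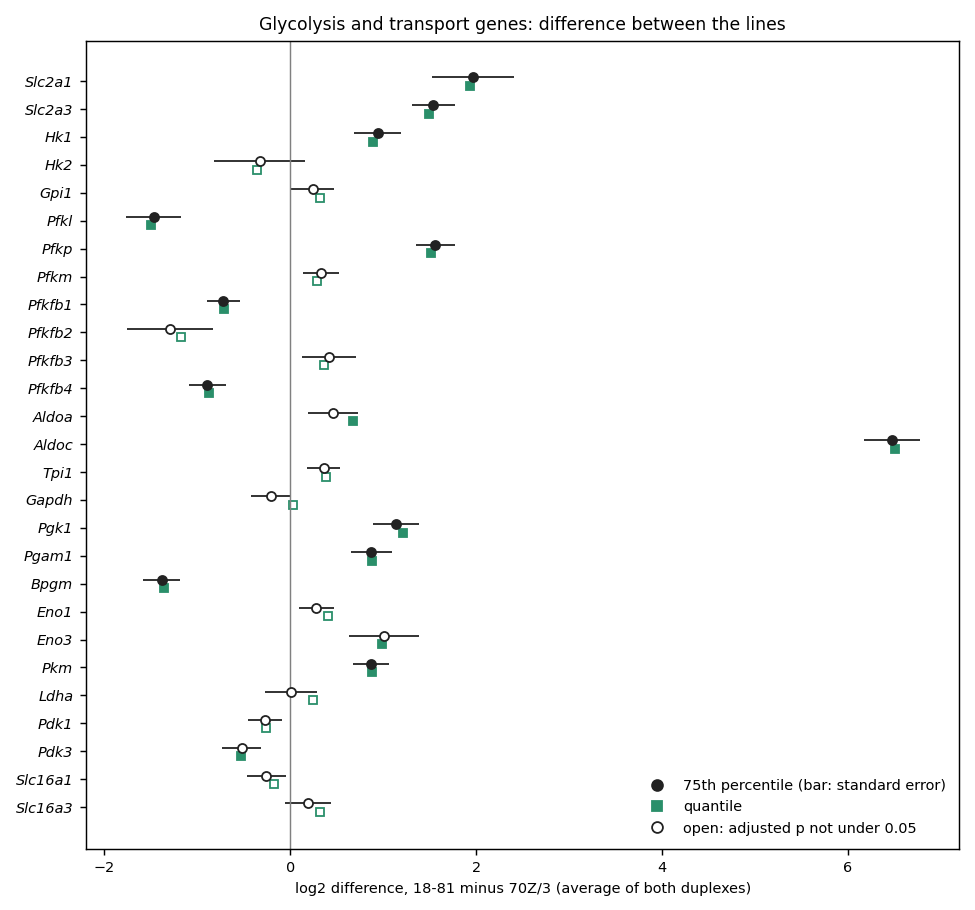
Log2 difference between 18-81 and 70Z/3, averaged over both duplexes, for the 27 measured members in pathway order. Circles are values after the 75th percentile with their standard errors, squares values after quantile normalization, and filled symbols those with an adjusted p under 0.05. Aldoc stands at 6.47, the other members called after the 75th percentile lie between -1.47 and 1.97 on that scale, and the 2 normalizations differ by at most 0.24.

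Both glucose transporters were higher in 18-81. Slc2a1, the main basal glucose carrier of most cells, lay at 4.00 and 4.95 with miR-Neg and at 4.13 and 5.08 with miR-125b in 70Z/3. In 18-81 it lay at 5.97 and 7.05 with miR-Neg and at 5.79 and 7.25 with miR-125b. Every 18-81 array was above every 70Z/3 array, and in all 4 groups the second replicate was the higher. The difference was 1.97 ± 0.44 (SE; 3.93-fold, adjusted p = 0.00996, limma). Slc2a3, a carrier with high affinity for glucose, lay between 3.07 and 4.09 on the 70Z/3 arrays and between 4.99 and 5.29 on those of 18-81. The groups did not overlap, and the difference was 1.54 ± 0.23 (2.91-fold, adjusted p = 0.00129).

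The hexokinases, which trap glucose by phosphorylation, differed from each other. Hk1, the form of most tissues, lay at 3.33 and 3.45 with miR-Neg and at 4.01 and 4.24 with miR-125b in 70Z/3, against 4.41 and 4.96 and then 4.33 and 5.11 in 18-81. It was higher in 18-81 by 0.94 ± 0.25 (1.92-fold, adjusted p = 0.0213, limma), though the lowest 18-81 array and the highest 70Z/3 array were only a step apart. The dimmer of its 2 probes gave 0.49 ± 0.37 and was not called (adjusted p = 0.367, limma), while the mean over both probes kept the call. Hk2, the inducible form, lay between 2.91 and 4.14 in 70Z/3 and between 2.35 and 4.02 in 18-81. Its groups overlapped widely, and the difference of -0.33 ± 0.49 was not called (adjusted p = 0.668).

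Phosphofructokinase, the committed step, is built from 3 subunit types, and they ran in different directions. Pfkp, the platelet type, lay at 2.66 and 2.45 with miR-Neg and at 2.99 and 3.27 with miR-125b in 70Z/3, against 4.35 and 4.62 and then 4.10 and 4.55 in 18-81. Pfkl, the liver type, ran the other way, at 4.65 and 3.89 and then 5.08 and 4.71 in 70Z/3, against 3.74 and 2.81 and then 3.25 and 2.65 in 18-81. No 70Z/3 array overlapped with an 18-81 array for either gene. Pfkp was higher in 18-81 by 1.56 ± 0.21 (2.96-fold, adjusted p = 0.000617, limma). Pfkl was lower, with a log2 difference of -1.47 ± 0.30 (2.77-fold lower, adjusted p = 0.00696). Pfkm, the muscle type, lay between 3.43 and 4.10 in 70Z/3 and between 3.96 and 4.24 in 18-81, and its difference of 0.33 ± 0.19 was not called (adjusted p = 0.23). The Pfkp call rests on 1 of its 2 probes: the dimmer probe gave -0.49 ± 0.44 (adjusted p = 0.453) for the same comparison, and the mean over both probes, 0.54, was not called. The brighter probe's target spans 2155 bases of chromosome 13 in the array's mm9 annotation, so it bridges at least 1 intron.

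The 4 Pfkfb enzymes make and remove the sugar bisphosphate that activates phosphofructokinase. Pfkfb1 lay between 1.35 and 1.70 in 70Z/3 and between 0.75 and 0.92 in 18-81, and Pfkfb4 between 0.22 and 0.91 and between -0.54 and -0.11. Neither gene's groups overlapped. Pfkfb1 fell by 0.72 ± 0.18 on the log2 scale (adjusted p = 0.0158, limma) and Pfkfb4 by 0.89 ± 0.20 (adjusted p = 0.0117). Pfkfb3, the inducible form of dividing cells, lay between 3.22 and 3.72 in 70Z/3 and between 3.44 and 4.45 in 18-81, and the difference of 0.42 ± 0.29 was not called. Pfkfb2, well above background on 5 of the 8 arrays, lay between -3.59 and -2.14 in 70Z/3 and between -5.02 and -3.27 in 18-81. The lines overlapped, and it had a difference of -1.29 ± 0.46 with an adjusted p of 0.0704. With the replicate block that p was 0.0085.

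Aldoc, a brain-type aldolase, had the largest difference of the 27. In 70Z/3 it lay at -2.29 and -3.40 with miR-Neg and at -2.80 and -2.37 with miR-125b. In 18-81 it lay at 3.56 and 3.90 with miR-Neg and at 3.52 and 4.05 with miR-125b. All 8 arrays measured it well above background, so the fold is no bound: 6.47 ± 0.30, or 88.9-fold (adjusted p = 1.05e-06, limma). Its level of -3.40 in 70Z/3 with miR-Neg was close to that array's lowest signal well above background, -3.46. Over the settings tried, the difference ran from 5.59 to 6.75. Aldoa, the common aldolase, lay between 8.79 and 9.58 in 70Z/3 and between 9.35 and 9.86 in 18-81. Its difference of 0.46 ± 0.27 was not called after the 75th percentile (adjusted p = 0.246), and was 0.68 with an adjusted p of 0.00681 after quantile normalization. Gpi1, the isomerase between hexokinase and phosphofructokinase, differed by 0.24 ± 0.23 and Tpi1, which interconverts the triose phosphates, by 0.36 ± 0.18. Neither was called.

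In the lower chain 3 enzymes were higher in 18-81 and a side-branch enzyme was lower. Pgk1, the first step that makes ATP, lay at 7.60 and 7.89 with miR-Neg and at 7.58 and 7.95 with miR-125b in 70Z/3, against 8.66 and 9.11 and then 8.52 and 9.28 in 18-81. It was 2.20-fold higher (1.14 ± 0.25, adjusted p = 0.00947, limma). Pgam1, the next mutase, lay between 6.91 and 7.31 in 70Z/3 and between 7.69 and 8.23 in 18-81 (0.87 ± 0.22, adjusted p = 0.0197). Pkm, a pyruvate kinase, lay between 6.85 and 7.31 and between 7.84 and 8.04 (0.87 ± 0.19, adjusted p = 0.00867, limma). None of the 3 overlapped between the lines. The array's annotation places the Pgk1 probe on chromosome 3 in mm9, whereas RefSeq has the gene on the X chromosome, so a near-identical copy may add to its signal.

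Bpgm, the mutase that diverts a lower-chain intermediate into bisphosphoglycerate, lay between 1.27 and 1.62 in 70Z/3 and between -0.18 and 0.29 in 18-81. Those groups stood well apart, with a difference of -1.38 ± 0.20 (2.60-fold lower, adjusted p = 0.00115, limma). Eno1, the common enolase, differed by 0.28 ± 0.19 and was not called. Eno3, the muscle enolase, lay between 2.39 and 3.40 in 70Z/3 and between 3.21 and 4.51 in 18-81. Its difference of 1.01 ± 0.38 had an adjusted p of 0.0849, and 0.0456 after quantile normalization.

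Gapdh, often used as a reference, lay at 9.65 and 10.02 with miR-Neg and at 9.40 and 9.76 with miR-125b in 70Z/3, against 9.32 and 9.65 and then 9.37 and 9.65 in 18-81. The lines overlapped and the difference of -0.21 ± 0.21 was not called (adjusted p = 0.512, limma). The other 6 Gapdh probes gave between -0.12 and 0.13. Ldha, the subunit that dominates lactate production, lay between 8.95 and 10.08 in 70Z/3 and between 9.08 and 9.77 in 18-81, with a difference of 0.01 ± 0.28 (adjusted p = 0.985).

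No member of the pyruvate dehydrogenase kinases or of the lactate carriers was called between the lines after the 75th percentile. Pdk1, a kinase that keeps pyruvate out of the mitochondrion, lay between 2.49 and 2.77 in 70Z/3 and between 2.31 and 2.50 in 18-81 (-0.27 ± 0.18, adjusted p = 0.321, limma). Pdk3 differed by -0.52 ± 0.21, with an adjusted p of 0.105 and of 0.0356 after quantile normalization. Slc16a1, a widely expressed lactate carrier, lay between -2.83 and -2.48 in 70Z/3 and between -3.19 and -2.38 in 18-81 (-0.26 ± 0.21, adjusted p = 0.394). Slc16a3, the lactate exporter of strongly glycolytic cells, lay between -4.90 and -3.89 on all 8 arrays and was well above background on 4 of them.

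**Figure D2:**
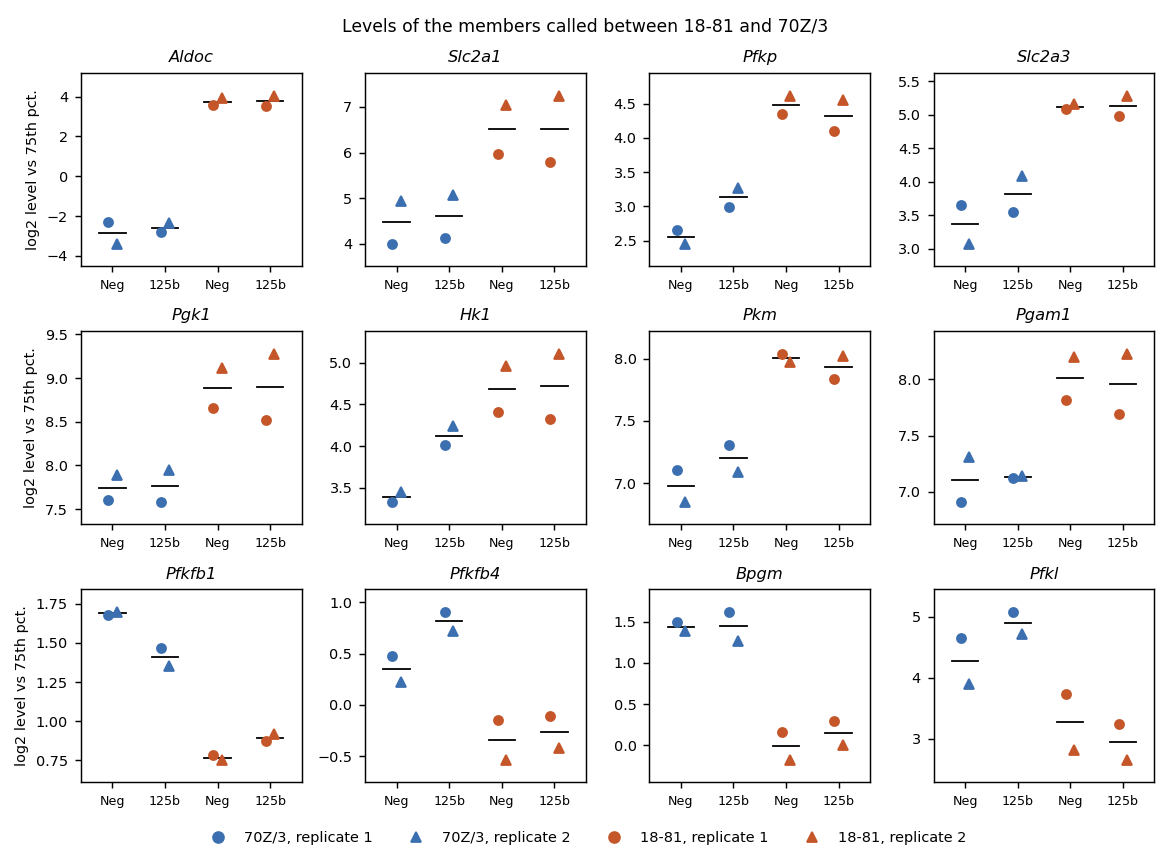
Level on each of the 8 arrays (log2, relative to the array's 75th percentile) for the 12 members called between the lines. Each panel shows 70Z/3 first (blue) and then 18-81 (orange), miR-Neg before miR-125b. Circles are replicate 1, triangles replicate 2 and horizontal lines the mean of each group of 2 arrays. The axes do not start at a common value. The 18-81 arrays of Aldoc sit between 3.52 and 4.05, and those of 70Z/3 between -3.40 and -2.29.

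How firmly each of the 12 calls stood varied. Slc2a3, Aldoc and Bpgm were called in the same direction under all 18 alternatives tried for this comparison. Pfkl lost its call with the miR-Neg arrays alone (-1.0, adjusted p = 0.152, limma) and Pkm with the miR-125b arrays alone (0.73, adjusted p = 0.0984). Slc2a1 and Pgk1 were not called when only the arrays of 1 duplex were used, 2 against 2. Pgam1 lost its call in 8 alternatives, and Hk1 and Pfkfb1 in 7 each, among them the removal of single arrays (for Hk1 and Pgam1 either 70Z/3 miR-125b array, 70Z/3 miR-Neg replicate 1, and either second-replicate 18-81 array). Pfkfb4 lost it in 3, including without 70Z/3 miR-125b replicate 1 and without 18-81 miR-Neg replicate 2. With 1 duplex only, 7 members were called with miR-Neg and 6 with miR-125b, beside 21.6% and 21.2% of all genes.

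The promoters of members on both sides of the line difference are shown, with the matches to a short motif that was counted in all promoters. ACGTG, on either strand, is the core of the element that the hypoxia-inducible factor binds, and it also lies inside the longer E-box CACGTG. Each window runs from 250 bases before a RefSeq start site to 50 after it (GRCm38.p6), is written 5′ to 3′ along the gene, and has every ACGTG or its complement CACGT in capitals. Slc2a1, Pgk1 and Aldoc were higher in 18-81, and Pfkl and Bpgm lower.
Slc2a1 (chr4:119108495-119108794, plus strand): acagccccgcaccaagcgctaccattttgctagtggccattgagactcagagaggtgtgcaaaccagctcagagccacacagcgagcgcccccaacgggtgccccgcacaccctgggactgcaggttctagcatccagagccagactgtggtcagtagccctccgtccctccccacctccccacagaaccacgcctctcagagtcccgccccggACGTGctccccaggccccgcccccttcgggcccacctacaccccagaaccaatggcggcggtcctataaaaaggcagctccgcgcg
Pgk1 (chrX:106186850-106187149, plus strand): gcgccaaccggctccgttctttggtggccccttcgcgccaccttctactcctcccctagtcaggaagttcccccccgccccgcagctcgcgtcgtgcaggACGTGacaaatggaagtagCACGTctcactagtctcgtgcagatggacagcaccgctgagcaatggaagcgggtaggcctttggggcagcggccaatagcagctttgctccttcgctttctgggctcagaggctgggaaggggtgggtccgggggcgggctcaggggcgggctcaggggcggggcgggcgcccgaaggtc
Aldoc (chr11:78322823-78323122, plus strand): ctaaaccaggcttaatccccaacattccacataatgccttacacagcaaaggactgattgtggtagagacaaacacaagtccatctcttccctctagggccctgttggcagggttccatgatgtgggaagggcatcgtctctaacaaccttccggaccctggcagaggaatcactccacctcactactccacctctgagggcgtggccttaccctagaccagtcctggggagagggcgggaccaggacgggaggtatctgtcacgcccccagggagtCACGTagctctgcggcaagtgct
Pfkl (chr10:78009758-78010057, minus strand): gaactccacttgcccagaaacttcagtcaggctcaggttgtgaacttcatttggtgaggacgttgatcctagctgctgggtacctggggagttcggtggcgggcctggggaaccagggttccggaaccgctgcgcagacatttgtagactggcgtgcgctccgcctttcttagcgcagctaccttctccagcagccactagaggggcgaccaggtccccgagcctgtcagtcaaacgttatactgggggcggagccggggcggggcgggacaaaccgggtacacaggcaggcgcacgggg
Bpgm (chr6:34476106-34476405, plus strand): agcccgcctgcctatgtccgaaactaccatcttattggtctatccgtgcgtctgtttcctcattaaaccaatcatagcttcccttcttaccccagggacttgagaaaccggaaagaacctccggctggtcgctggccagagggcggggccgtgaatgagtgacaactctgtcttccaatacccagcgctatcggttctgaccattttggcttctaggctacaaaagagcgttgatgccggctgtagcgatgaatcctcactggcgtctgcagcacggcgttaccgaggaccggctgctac
The match in Slc2a1 begins 36 bases before the start site and those in Pgk1 150 and 131 bases before it. The match in Aldoc begins 27 bases after the start, and a second Aldoc window holds none. Pfkl and Bpgm hold no match in these windows.

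Over all entries, 22 of 50 member windows (44%) held ACGTG, beside 6447 of 32851 RefSeq windows (19.6%). By gene, with any of its windows counted, 18 of 31 members had a match, beside 21.8% of 27025 genes. Of the 7 members called higher in 18-81 that have an entry, 6 had a match: all except Pfkp. Of the 4 called lower, 0 had one. This split depended on the setting. Pdk3, called lower under quantile normalization, and Pfkfb2, called lower with the replicate block, each had a match. Of the members that those settings added as higher, Aldoa had a match and Eno3 had none. Slc2a3 has no entry. Among the tested genes that have a promoter entry, the shares were 26.3% of 1617 genes called higher in 18-81, 25.5% of 1778 called lower and 30.2% of 6671 not called. CACGTG was in 6 of 50 member windows (12%) beside 7.15% of all windows. Members without a line difference also carried matches, among them Ldha, with matches at 5 positions of 1 window (some overlap on the 2 strands), and Hk2, with matches at 2. These are letter matches in short windows, and binding was not measured.

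Genes that share regulators or substrates with glycolysis were examined as fixed lists in the same comparison. Of 20 other hypoxia-response genes, 16 were measured, and 11 were called higher and 3 lower in 18-81, beside 15.6% and 16.2% of all genes. Their median was 1.30 beside 0.02 for all genes. Vegfa, the angiogenic factor, was higher by 3.87 ± 0.31 (adjusted p = 3.1e-05, limma). Adm, which codes for a vasodilator peptide, did not rise well above background in 70Z/3 and was at least 5.91-fold higher in 18-81. P4ha2, a collagen prolyl hydroxylase, did not rise well above background in 18-81 and was at least 2.23-fold lower there. The call counts were the same after quantile normalization.

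Of 20 regulators of glycolytic genes, 18 were measured and 4 were called higher in 18-81, with 0 lower, beside 15.6% and 16.2% of all genes. Mycn was above background on no 70Z/3 array and was at least 315-fold higher in 18-81, and Prkaa2, a catalytic subunit of the energy sensor AMPK, at least 35.6-fold. Myc was higher by 1.37 ± 0.31 (adjusted p = 0.0112, limma). Hif1a, which codes for the regulated subunit of the hypoxia-inducible factor, differed by 0.35 ± 0.23 and was not called, whereas its partner Arnt was higher by 0.88 ± 0.23 (adjusted p = 0.0186). Hif1a and Arnt were singled out after their values were seen.

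The other lists varied in their share of calls, beside 15.6% of all genes called higher and 16.2% called lower. Of 16 citrate cycle genes, all measured, 2 were higher and 1 lower. Of 11 measured genes of the pentose phosphate pathway, 1 was higher and 1 lower: Prps1, which feeds nucleotide synthesis, was at least 940-fold higher, being above background on 0 of 4 arrays in 70Z/3, and H6pd was lower (-1.29 ± 0.32). The same counts held for the 11 genes of pyruvate entry to mitochondria, with Pdhb higher (1.05 ± 0.27) and Mpc2 lower (-0.85 ± 0.28). Of 12 measured genes of gluconeogenesis and glycogen, 2 were higher, Gbe1 (2.18 ± 0.36) and Gys1 (0.89 ± 0.22). Of 10 measured genes of hexose and monocarboxylate transport, 2 were higher and 3 lower. Emb, a chaperone of the lactate carriers, was not well above background in 18-81 and at least 309-fold lower there. After quantile normalization the citrate cycle had 4 higher and 2 lower, and pyruvate entry 2 and 1. Gluconeogenesis and glycogen then had 3 and 0, and transport 1 and 3, beside 18.9% and 17.2% of all genes. The pentose phosphate counts did not change. Of 12 further isozymes only Pgam2, Ldhal6b and Adpgk were measured, and all 3 were higher. Ldhal6b was not well above background in 70Z/3 and was at least 1.45-fold higher in 18-81. Pgam2 was well above background on at most 1 of the 70Z/3 arrays.

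The miR-125b duplex gave no call among these genes. In 70Z/3, 0 of 27 members and 0 of 18777 genes passed an adjusted p of 0.05 with limma, and at an unadjusted p under 0.05 the counts were 0 members and 1104 genes (5.88%). In 18-81 both counts were again 0, with 0 members and 228 genes (1.21%) at the unadjusted threshold. Quantile normalization also gave 0 calls in both lines, with 3 members of 27 at the unadjusted threshold in 70Z/3 (Hk1, Pfkp and Pfkm) beside 7.26% of genes, and 0 in 18-81 beside 1.42%. With 2 arrays in each group, the standard error of a duplex effect was between 0.25 and 0.69 for these genes. Effects of that size, and larger ones, could go uncalled, so the absence of calls does not exclude them.

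In 70Z/3 the choice of normalization moved most members. After the 75th percentile the members' median difference was 0.13, beside -0.13 for all genes, so 0.26 above it, and 18 of 27 members lay above the all-gene median. After quantile normalization it was 0.35 beside -0.01, and 21 of 27 lay above. The 9 bright members with mean levels above 6, which are Gpi1, Aldoa, Tpi1, Gapdh, Pgk1, Pgam1, Eno1, Pkm and Ldha, moved up by between 0.33 and 0.41, their median going from 0.02 to 0.35. The other 18 moved by between -0.03 and 0.23. In 18-81, where the arrays were of like brightness within each replicate, the same change of normalization moved the 9 bright members by between -0.05 and 0.01.

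Of the 17 measured markers of other cell types, limma called 0 between the duplexes in 70Z/3, and 5 had an unadjusted p under 0.05. All 8 measured T cell markers lay below 0 (median -0.85), and Sparc, a matrix protein, lay at -0.35 and 0.69 with miR-Neg and at 4.25 and 5.38 with miR-125b (4.64 ± 0.49, adjusted p = 0.141). Their part in the members' values was not tested.

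The members with the highest values in 70Z/3 were at the entry and the committed step. Hk1 was higher with miR-125b by 0.68 in replicate 1 and by 0.79 in replicate 2 (0.74 ± 0.35, adjusted p = 0.773, limma), and by 0.93 after quantile normalization. The probes that stand for the 3 phosphofructokinase subunits gave values above 0 in both replicates, but the dimmer Pfkp probe gave -0.31 ± 0.62. Pfkl gave 0.43 and 0.82 (0.62 ± 0.43), Pfkp 0.33 and 0.81 (0.57 ± 0.29) and Pfkm 0.40 and 0.67 (0.53 ± 0.26). After quantile normalization they gave 0.85, 0.72 and 0.72. Ldha gave -0.31 and -0.80 (-0.56 ± 0.40), which became -0.14 after quantile normalization. No adjusted p among these was below 0.567 in either normalization.

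In 70Z/3, the 2 miR-125b arrays lay above both miR-Neg arrays for 7 members and below them for 2, beside 14.9% and 22.8% of all genes. The 7 were Hk1, Pfkl, Pfkp, Pfkm, Pfkfb4, Tpi1 and Eno1, and the 2 were Pfkfb1 and Slc16a1. After quantile normalization the counts were 12 and 2, beside 18.9% and 19.4%. Slc2a1 gave 0.13 in both replicates, whereas Slc2a3 gave -0.11 and 1.02 and Aldoc -0.51 and 1.03, so for the last 2 genes the replicates had opposite signs.

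Gapdh showed how far the answer depended on the probe. Its brightest probe gave -0.25 ± 0.30 in 70Z/3 after the 75th percentile and 0.15 after quantile normalization. The other 6 Gapdh probes, 1 of them placed on chromosome 8 instead of 6 in mm9, gave between 0.13 and 0.29 after the 75th percentile. None of the 7 was called.

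In 18-81 the members' median duplex difference was 0.02, or 0.01 below the all-gene median, and it was 0.00 after quantile normalization. The range ran from -0.36 ± 0.66 for Pfkfb2, whose replicates gave 0.13 and -0.86, to 0.49 ± 0.29 for Slc16a1, with 0.26 and 0.72. Slc16a3 gave 0.28 and 0.24, Pfkl -0.49 and -0.16, and Eno3 0.06 and 0.35. The 2 miR-125b arrays lay above both miR-Neg arrays for Pfkfb1, Slc16a1 and Slc16a3 and below them for Tpi1 and Pdk1, beside 7.76% and 5.13% of all genes. After quantile normalization the counts were 3 and 4, beside 9.52% and 5.84%. For Ldha the brightest probe gave 0.04 ± 0.40, but the other 2 gave -0.54 ± 0.43 and -0.91 ± 0.70. Those values rest on 1 array, 18-81 with miR-125b replicate 1, where the 2 probes lay at 4.13 and 5.64 against 5.33 and 7.74 with miR-Neg. In replicate 2 they went the other way, at 5.41 and 8.14 against 5.30 and 7.86.

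**Figure D3:**
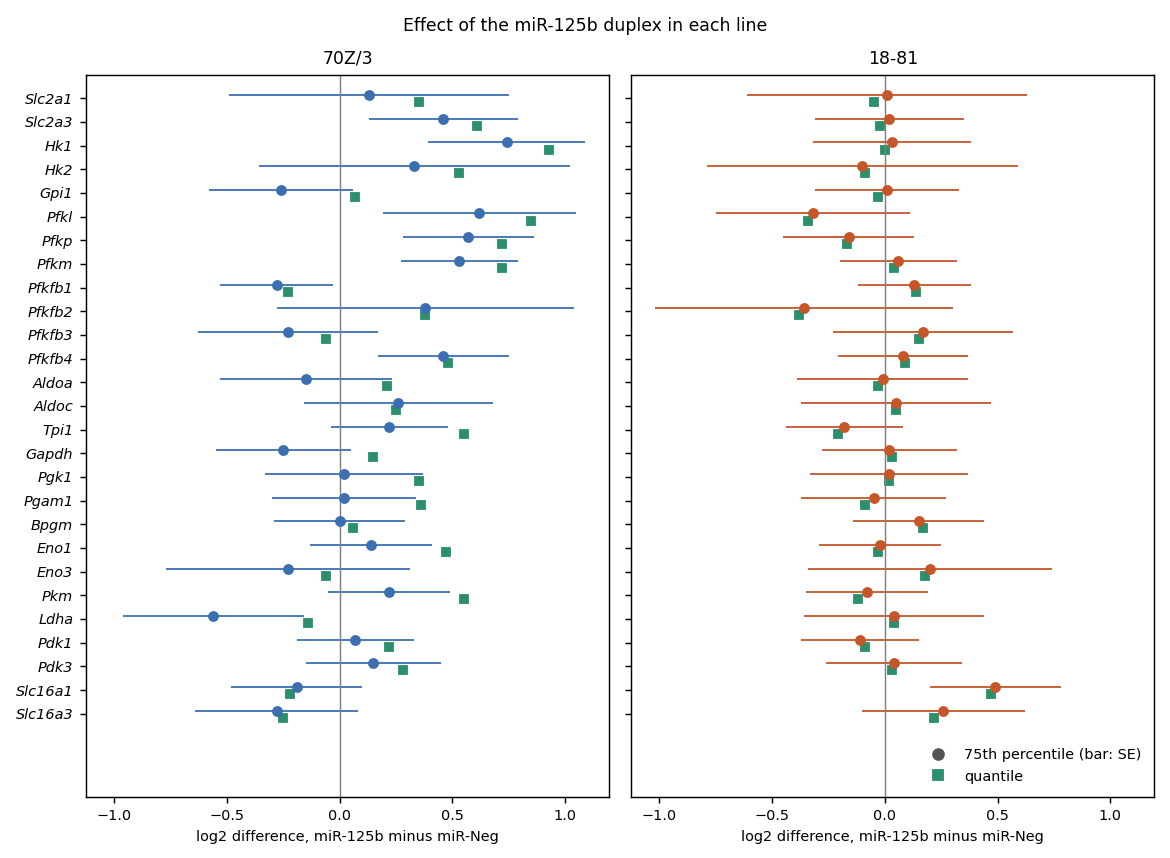
Log2 difference between miR-125b and miR-Neg in each line for the 27 measured members. Circles are values after the 75th percentile with their standard errors, and squares are values after quantile normalization. In 70Z/3 most squares lie to the right of their circles, and in 18-81 the 2 lie within 0.06 of each other.

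No member was called in limma's test of the difference in duplex effect between the lines, and 0 of 18777 genes passed it (606, or 3.23%, at an unadjusted p under 0.05). The largest values were for Pfkl (-0.95 ± 0.61), Pfkfb2 (-0.75 ± 0.93), Pfkp (-0.73 ± 0.42), Hk1 (-0.70 ± 0.50) and Slc16a1 (0.68 ± 0.41), each as the effect in 18-81 minus that in 70Z/3. After quantile normalization the count was again 0, with 2 members below an unadjusted p of 0.05 beside 4% of genes. Averaged over both lines, 0 members and 0 genes were called by limma under either normalization, and the largest values were 0.39 for Hk1 and 0.29 for Pfkm. At an unadjusted p under 0.05 the average gave 0 members beside 2.69% of genes, and 1 member beside 3.17% after quantile normalization. In the average, 22 of 27 members (81.5%) lay above the all-gene median, and 23 did after quantile normalization. Taken by line, 18 of 27 lay above that line's all-gene median in 70Z/3 but only 12 of 27 in 18-81. After quantile normalization these counts were 21 and 13. The replicate block changed no duplex call among the members.

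More members were called by replicate number than by duplex. The comparison of replicates was added after the values were seen. It sets replicate 2 against replicate 1 over the 4 groups, and whether the number stands for the experiment is not stated, while the row of the slide follows the same number. Of 27 members, 8 (29.6%) were called after the 75th percentile, beside 26% of all genes, with 6 higher and 2 lower in replicate 2 beside 19.9% and 6.05%, so the members' share was near the background. After quantile normalization 6 were called (22.2%) beside 10.5%, with 3 higher and 3 lower beside 4.98% and 5.5%. The all-gene median was 0.21 after the 75th percentile and 0.04 after quantile normalization. In this comparison, leaving out either array of a group gave the same fit, because its partner alone says nothing of the replicate number. The 2 arrays of a group are therefore not separate checks. With any 1 of 6 of the 8 arrays left out, limma called 0 members and 0 of all 18777 genes. Without either 70Z/3 array with miR-125b, it called 6 members and 3253 genes.

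Hk2 and Slc2a1 led the members that were higher in replicate 2. Hk2 was higher by 0.93 and 0.86 in the 70Z/3 groups and by 1.53 and 1.63 in those of 18-81 (1.24 ± 0.18, adjusted p = 0.0265, limma), and by 1.01 after quantile normalization. Slc2a1 was higher by 0.95, 0.95, 1.08 and 1.45 (1.11 ± 0.14, adjusted p = 0.0265) and Eno3 by between 0.38 and 1.25 (0.90 ± 0.17, adjusted p = 0.0278). These 3 kept their calls after quantile normalization, with adjusted p-values of 0.0364, 0.0351 and 0.0456. Ldha (0.59 ± 0.14), Aldoa (0.56 ± 0.12) and Pgk1 (0.47 ± 0.13) were called only after the 75th percentile and gave 0.13, 0.08 and 0.01 after quantile normalization.

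Pfkl and Pfkfb2 were lower in replicate 2. Pfkl differed by -0.76 and -0.37 in 70Z/3 and by -0.93 and -0.60 in 18-81 (-0.66 ± 0.14, adjusted p = 0.029, limma), and by -0.91 after quantile normalization (adjusted p = 0.034). Pfkfb2 differed by between -1.74 and -0.30 (-1.06 ± 0.26, adjusted p = 0.0352, and 0.0574 after quantile normalization). Tpi1 and Pkm were called lower only after quantile normalization, at -0.53 and -0.58. The 2 Hk1 probes disagreed, the brighter giving 0.42 and the other -0.88 ± 0.16. Among the other hypoxia-response genes, 7 of 16 were called higher in replicate 2 after the 75th percentile, beside 19.9% of all genes. After quantile normalization 1 was, beside 4.98%.

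**Figure D4:**
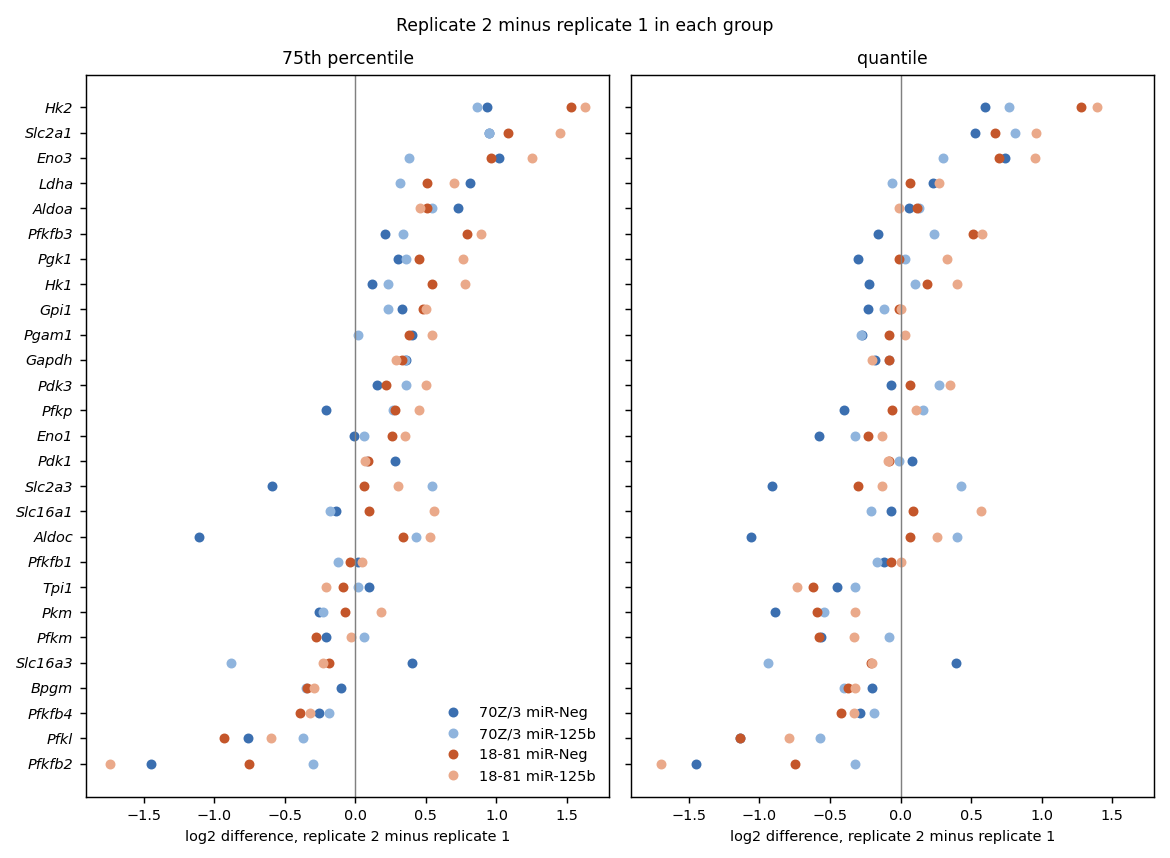
Log2 difference between replicate 2 and replicate 1 within each of the 4 groups for the 27 measured members, after the 75th percentile (left) and after quantile normalization (right). Each point is 1 group, and members are ordered by their mean difference. Hk2 lies between 0.86 and 1.63 on the left and between 0.60 and 1.39 on the right, while Aldoa and Ldha move toward 0.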

How the data were processed

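Each of the 8 RNA samples was labelled with Cy3 and hybridised to a one-colour Agilent mouse array. The deposited scanner files give intensity per spot, background-corrected by the authors' Agilent Feature Extraction 10.7.3.1, per the file headers. Here log2 intensity was taken minus log2 of each array's 75th percentile, control and outlier spots were left out, spots of a probe were averaged, and a probe was kept if 1 or more of the groups had it well above background on each of its 2 arrays and all 8 arrays gave a value (25289 probes). The brightest probe stood for a gene. The authors' deposited table, used as an alternative, holds linear intensity whose columns share 1 maximum, as quantile normalization gives. Its scale is otherwise unstated.

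limma 3.58.1 (R 4.3.3, checked on simulated data) fitted 4 group means over all arrays, with 4 residual degrees of freedom. Genes were called at a Benjamini-Hochberg adjusted p under 0.05. Only 2 arrays a group limit the precision, and the p-values set each difference against the spread between these samples only. For a gene that no array of one side measured well above background, the fold is the bright side's mean against the higher of that array's lowest signal well above background and the probe's own.

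The members and lists were chosen with earlier results of these data known. Values on every array, or their range, are given for called members, the 5 largest differences of a comparison and regulated steps, and up to 3 genes of a context list are named by size. Same-numbered arrays deviated together (r between 0.374 and 0.648 over 18777 genes for the 6 pairs of groups). The replicate number, given in the titles, therefore paired them in the differences given by replicate and in the replicate block. The main fit had no such block, so its standard errors and p-values include the shift between replicates. Pkm is named Pkm2 on the array and was matched by its RefSeq identifier. Promoter and miRNA sequences come from RefSeq tables (GRCm38.p6).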

Additional observations from a re-analysis of the deposited data

How the results depend on the processing

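Leaving out 1 array at a time gave between 4564 and 5706 genes and between 8 and 13 members called between the lines, and a member median relative to all genes between 0.21 and 0.33. For the duplex it gave 0 members throughout, with 0 to 2 genes in 70Z/3, 0 to 9 in 18-81, 0 to 5 for the average and 0 to 5 for the difference. The relative member medians ran between 0.18 and 0.26, -0.13 and 0.02, 0.07 and 0.14, and -0.36 and -0.12 in that order. For the replicate number it gave 0 to 3253 genes, 0 to 6 members and medians between -0.09 and 0.12.

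Between the lines, the replicate block raised the genes called from 5962 to 9025 of 18777 and members from 12 to 16. Probes above background on all 8 arrays left 3513 of 14653 genes. The miR-125b arrays alone gave 3974 genes and 6 members, with 7 members for miR-Neg alone. In 70Z/3, normexp background and the replicate block within each line each called 1 gene, and with no intensity filter the relative member median was 0.40. The member median of the duplex effect's difference between lines was -0.35 with quantile normalization and with the authors' table and -0.46 with no filter, against -0.28. For the replicate number, genes called were 1968 with quantile normalization, 1986 with the authors' table and 7385 with normexp, against 4879, each of 18777. With no filter 12441 of a larger set of 36294 genes were called, and the member median was -0.22. The cause of these moves was not tested.

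Some values that were not called changed sign. With single arrays left out, the 18-81 duplex effect ran from -0.42 to 0.83 for Eno3 (-0.28 with the first miR-Neg array left out and -0.42 with the second miR-125b array left out), from -1.23 to 0.51 for Pfkfb2 (0.01 and 0.51 without the same arrays) and from -0.79 to 0.14 for Pfkl (0.14 without miR-Neg replicate 1). For Pfkfb2, the duplex effect in 18-81 minus that in 70Z/3 ran from -1.62 to 0.12 (0.12 without 18-81 miR-125b replicate 2). It was 0.04 with normexp.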
